A study of Mus musculus with 2 samples.

Results

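The proteasome genes of the mouse testis were followed from spermatogonia to sperm and across the somatic and immune cells of one wild-type (WT) and one Alkbh5 knockout (KO) library. They were taken by symbol, as every gene whose name begins with Psma, Psmb, Psmc, Psmd, Psme, Psmf or Psmg and a digit and is not marked as a pseudogene copy by "-ps". The rule found 50 genes among 36547 symbols. By role they are 7 standard alpha subunits, the testis alpha subunit Psma8, 7 standard beta subunits, the 3 immunoproteasome beta subunits Psmb8 to Psmb10, the thymus subunit Psmb11, 9 subunits of the base and 8 of the lid of the regulatory particle, 5 activator genes, the inhibitor Psmf1 and 7 assembly chaperones. The remaining member, Psmc3ip, encodes a partner of meiotic recombination proteins and is no proteasome subunit. Both libraries came from testes of 12-week-old C57BL/6 mice, one WT and one Alkbh5-/-. ALKBH5 removes the N6-methyladenosine mark from RNA, and its deletion is not restricted to one cell type, so germ and somatic cells both lack the gene. The libraries were made with the GEXSCOPE single-cell kit, which counts captured poly(A) RNA molecules as unique molecular identifiers (UMIs).

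The proteasome degrades proteins that carry ubiquitin. Its core is a barrel of stacked rings, with alpha rings at both ends that gate the entrance and beta rings inside that cut the substrate, and a regulatory particle with an ATPase base and a lid that binds, opens and unwinds the substrate. Parts can be exchanged: PSMA8 takes the place of PSMA7 in meiotic germ cells, the activator PSME4 (PA200) is prominent in the testis and has been tied to the loss of histones in spermatids, and interferon-responsive cells replace the catalytic subunits PSMB5, PSMB6 and PSMB7 by PSMB8, PSMB9 and PSMB10 to form the immunoproteasome, which supplies peptides for antigen presentation.

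The WT library held 5756 cell barcodes and 80283221 UMIs (median 10905.5 per cell), and the KO library 7012 barcodes and 82056760 UMIs (median 9117.5). Alkbh5 itself was counted in 607 UMIs in WT and in 5 UMIs in KO. Cells were clustered, and each cluster was named from marker genes and is called "-like". The 12 germ cell clusters and the Leydig-like, Sertoli-like, macrophage-like and endothelial-like clusters were filled unequally, with 154 WT and 917 KO spermatogonia-like cells, 96 and 1182 Leydig-like cells, 50 and 478 Sertoli-like cells, 23 and 71 macrophage-like cells and 1 and 24 endothelial-like cells. The 2 clusters of late spermatocyte-like cells are told apart by Piwil1 and Pabpc6, the 2 of mid-stage round spermatid-like cells by Tssk5 and Cd46, and the 4 of sperm-like cells by Prss58, Tnp2, Klk1b8 and Spem1. No order in time was computed for the clusters of one class. With 1 library per genotype no difference between genotypes has a replicate check and none was tested. Levels are CPM, the UMIs of a gene per 1000000 UMIs of its cluster or class, and all intervals cover counting error only. RNA of other cells was present in both libraries: 10 abundant spermatid transcripts summed to 25499 CPM in WT and 16740.5 CPM in KO in spermatogonia-like cells against 268212 CPM in WT and 238387 CPM in KO in sperm-like cells, and 7 Leydig transcripts summed to between 5.52 and 33.2 CPM in the WT germ cell clusters and between 97.1 and 328 CPM in the KO ones. The libraries shared 45 barcodes.

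Messenger RNA of the proteasome was most abundant in spermatogonia-like cells and was lower at each later stage up to late-stage round spermatid-like cells in both libraries. All members together made up 0.571% of the UMIs of the WT library and 0.701% of those of the KO library. Of the 50 members 46 had at least 100 UMIs in each library, and the remaining 4 were Psmb8, Psmb9, Psmb11 and the near-copy Psme2b. The 31 standard subunits, those of the alpha and beta rings, base and lid, summed to 10346 CPM in WT and 11936 CPM in KO in spermatogonia-like cells. In early spermatocyte-like cells the sum was 7337 in WT and 8087 in KO, in the Piwil1 cluster 6356 in WT and 6839 in KO and in the Pabpc6 cluster 5247 in WT and 5370.5 in KO. It was 5055 CPM in WT and 5204 CPM in KO in early-stage round spermatid-like cells, 2479 in WT and 2653 in KO in late-stage round spermatid-like cells and 2126 in WT and 2147 in KO in the Spem1 cluster.

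The levels of single subunits diverged along the way. Between spermatogonia-like and sperm-like cells 25 of 31 standard subunits fell more than 10-fold in each library, with a median log2 ratio over the 31 of -5.63 in WT and -5.47 in KO. Psma6 and Psmc2 were instead higher in sperm-like cells in both libraries. Psmd8 had a log2 ratio of 0.05 in WT (95% interval -0.10 to 0.20), which holds 0, and of 0.34 in KO (95% interval 0.26 to 0.42). Psmc2 and Psmd8 were low in the last listed cluster, led by Spem1, at 44.4 CPM in WT and 52.5 CPM in KO and at 118 CPM in WT and 130.3 CPM in KO. The standard subunits summed to 2509 CPM in WT and 2658 CPM in KO in sperm-like cells, and most of this was from 5 genes: without Psma6, Psmc2, Psmc3, Psmd4 and Psmd8 the sum was 131 CPM in WT and 187 CPM in KO, against 8777 and 10371 CPM in spermatogonia-like cells. The share of all genes that fell 10-fold between spermatogonia-like and sperm-like cells was not computed. From early-stage round spermatid-like to sperm-like cells alone, 61.9% of the genes compared were at least 2-fold lower in both libraries. The highest germ cell cluster also differed between subunits. It was the spermatogonia-like cluster for 16 of 31 in WT and 18 of 31 in KO, early spermatocyte-like cells for 6 in each library, the Piwil1 or Pabpc6 cluster for 7 in WT and 5 in KO, early-stage round spermatid-like cells for Psmc2 and the Spem1 cluster for Psma6.

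**Figure D1:**
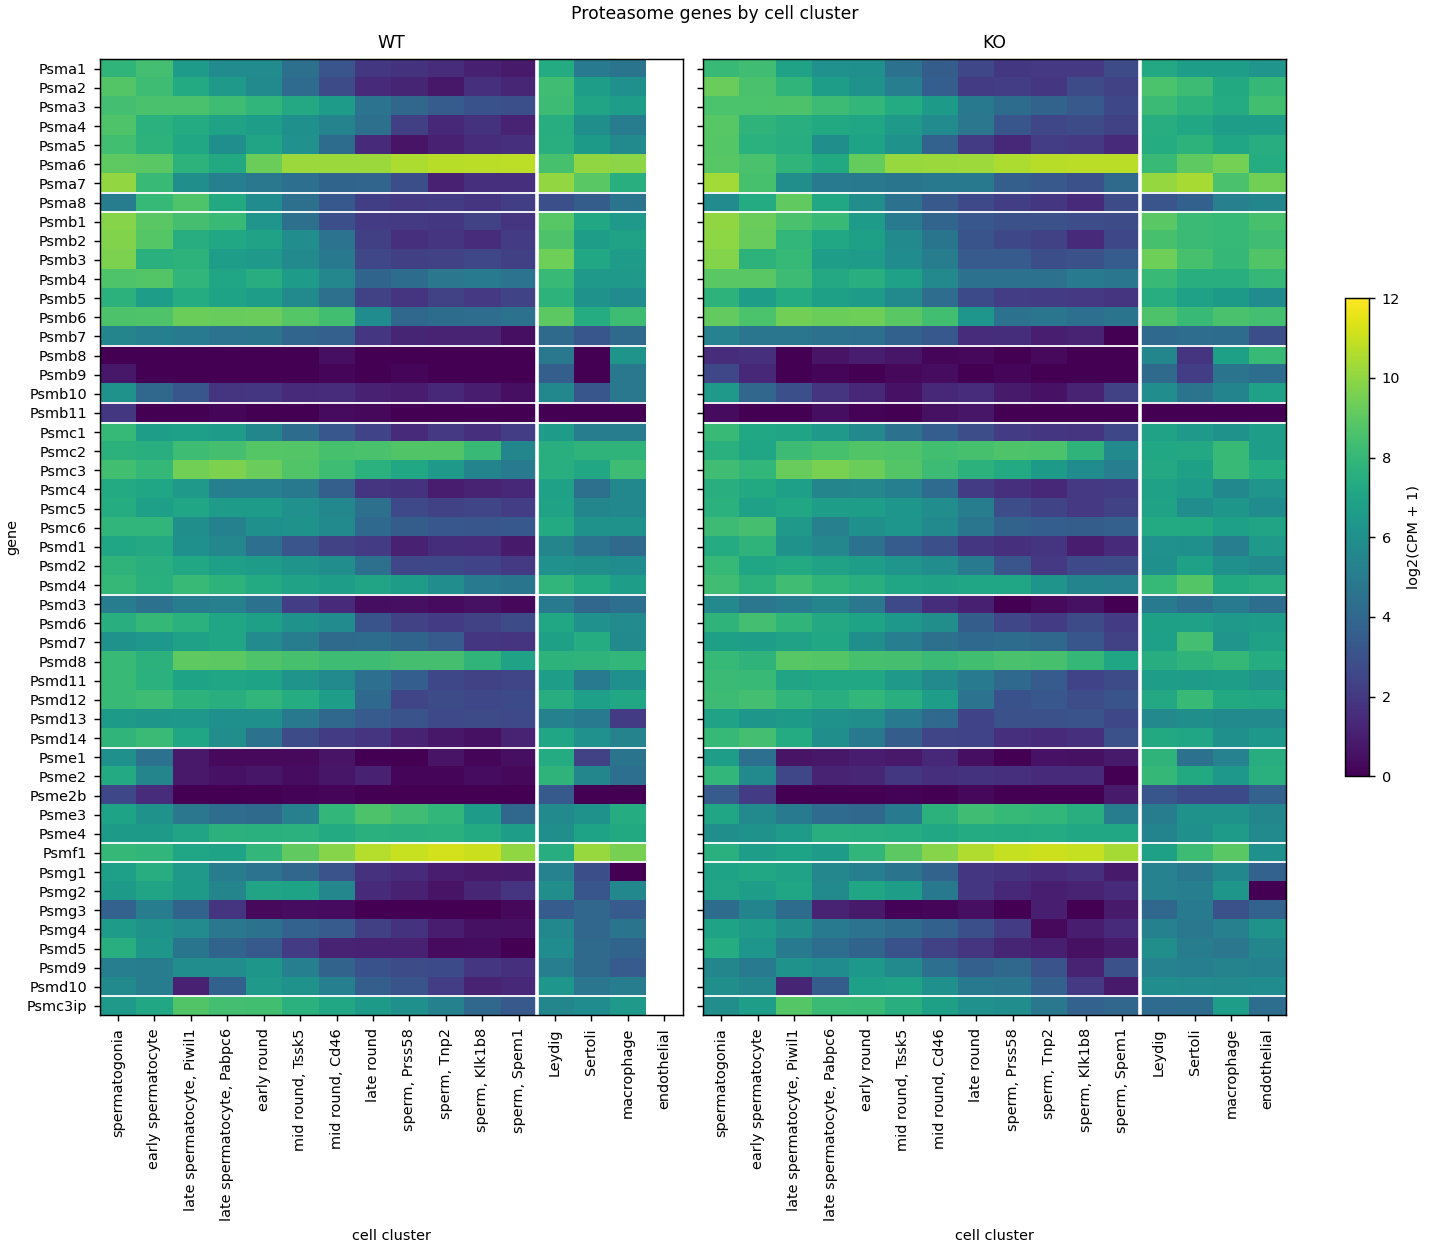
Heat map of the level of each proteasome gene (one line per gene, grouped by role) in the germ cell, somatic and immune clusters of the WT and KO libraries, on a log2(CPM + 1) colour scale. Most standard subunits fade from spermatogonia-like to sperm-like cells, while Psma6, Psmc2, Psmd8 and Psmf1 keep or gain signal. Psmb8 stays dark in every germ cell cluster, and the endothelial column of WT is empty because the library held 1 such cell.

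Each step was described by the genes that changed at least 2-fold in both libraries, among genes with at least 100 UMIs over both classes in each library. From spermatogonia-like to late spermatocyte-like cells 22 of 45 members were lower (27.4% of all genes were lower), and Psma8, Psmc3 and Psmc3ip, 3 of 45, were higher (32.5% of all genes were higher). The median log2 ratio of the members was -0.996 in WT and -0.938 in KO, against 0.09 and 0.11 over all genes. From late spermatocyte-like to early-stage round spermatid-like cells 8 of 42 members were lower (18.9% of all genes), and 2 of 42, Psma6 and Psmd10, were higher (23.1% of all genes). From early-stage round spermatid-like to sperm-like cells 36 of 42 members were lower (61.9% of all genes), and Psma6, Psme3 and Psmf1, 3 of 42, were higher (16.6% of all genes). The members' median at this last step was -4.36 in WT and -3.71 in KO, against -2.29 and -1.996 over all genes. The members that passed the UMI minimum are those abundant enough in at least one class of a pair, so these medians do not describe all 50 genes.

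Messages of Psma7 and Psma8, alternative subunits of the alpha ring, moved in opposite directions on entry into meiosis. Psma7, the standard alpha 4 subunit (GRCm38 chr2:180036374-180042433 on the minus strand), stood at 1076 CPM in WT (95% interval 1023 to 1132) and 1274 CPM in KO (95% interval 1248 to 1299.9) in spermatogonia-like cells. It was 277 CPM in WT and 368 CPM in KO in early spermatocyte-like cells, 62.2 in WT and 60.4 in KO in the Piwil1 cluster and 27.0 in WT and 28.2 in KO in early-stage round spermatid-like cells. Psma8, its testis form, ran the other way at first: 31.4 CPM in WT and 54.7 CPM in KO in spermatogonia-like cells, 260.3 in WT and 165 in KO in early spermatocyte-like cells and 419.9 in WT and 529 in KO in the Piwil1 cluster, its highest level in both libraries. Psma8 then fell to 155 in WT and 139.6 in KO in the Pabpc6 cluster, 56.2 in WT and 59.6 in KO in early-stage round spermatid-like cells and 3.63 in WT and 5.33 in KO in late-stage round spermatid-like cells. Both messages were thus low in spermatids.

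Psma8 supplied 2.83% in WT and 4.12% in KO of the UMIs of the pair in spermatogonia-like cells, 48.4% in WT and 30.9% in KO in early spermatocyte-like cells and 87.1% in WT and 89.8% in KO in the Piwil1 cluster. Over all late spermatocyte-like cells the share was 85.0% in WT (95% interval 83.9 to 86.1%) and 88.1% in KO (95% interval 87.0 to 89.0%). It was 67.5% in WT and 67.9% in KO in early-stage round spermatid-like cells and 20.4% in WT and 16.03% in KO in late-stage round spermatid-like cells, and in sperm-like cells too few UMIs of either gene were left for a comparison. The early spermatocyte-like share was the one that differed most between the libraries among clusters up to the early round spermatids. In those cells Psma8 was higher and Psma7 lower in WT, and the summed spermatid transcripts were 24059 CPM in WT and 6965 CPM in KO. The part of that RNA, or of the make-up of 67 WT and 267 KO cells, in the difference was not tested.

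The cells themselves gave the same order. After each cell was thinned to 5000 UMIs, 75.9% in WT and 85.0% in KO of the cells of the Piwil1 cluster held a Psma8 UMI, 49.8% in WT and 45.1% in KO of the Pabpc6 cluster and 23.2% in WT and 23.2% in KO of early-stage round spermatid-like cells. Leydig-like cells, in which Psma8 is not expected, gave 3.12% in WT and 3.17% in KO at median depths of 10004 and 7852.5 UMIs per cell. Without thinning the shares were 98.4% in WT and 98.3% in KO in the Piwil1 cluster and 7.29% in WT and 5.84% in KO in Leydig-like cells. Spermatogonia-like cells, with 13.6% in WT and 24.7% in KO after thinning, lay above the Leydig-like share in both libraries. Macrophage-like cells gave 8.70% in WT and 8.82% in KO, with 95% intervals of 1.07 to 28.04% and 3.31 to 18.2%, and the 20 endothelial-like KO cells 20% (95% interval 5.73 to 43.7%), so the spermatogonia-like share was not set apart from every somatic class at this depth. The thinned share was higher in KO than in WT in spermatogonia-like cells and in the Piwil1 cluster and lower in early spermatocyte-like cells, at 35.8% in WT and 27.0% in KO, where the 95% intervals overlapped (24.5 to 48.5% and 21.6 to 33.0%).

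**Figure D2:**
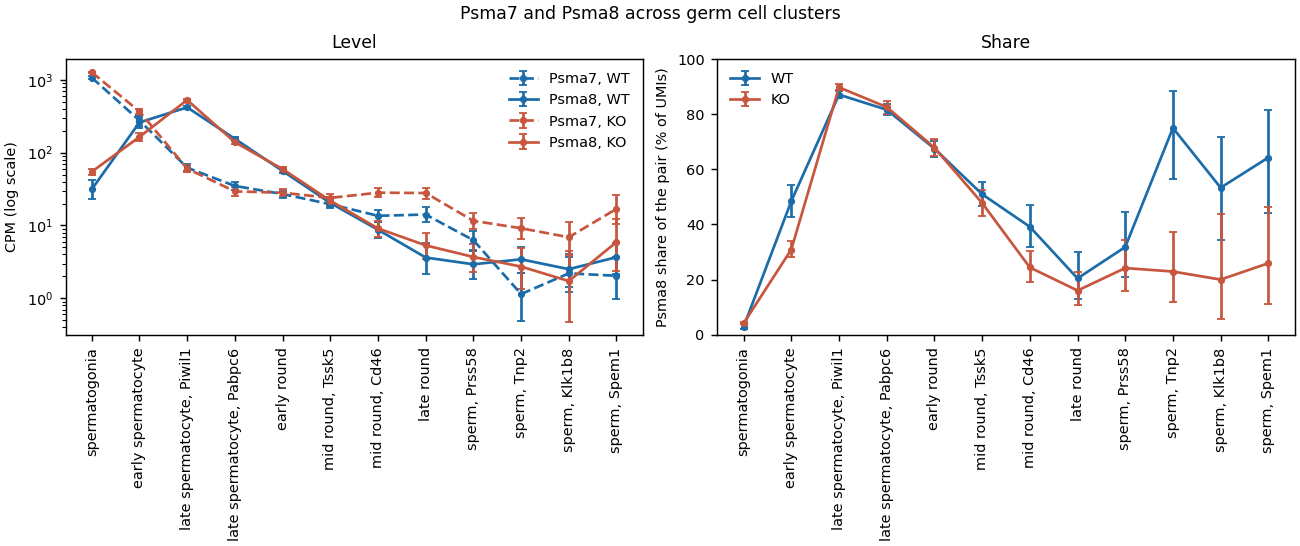
Psma7 and Psma8 across the 12 germ cell clusters of the WT and KO libraries: level of each gene in CPM on a log axis, and the share of Psma8 in the UMIs of the pair in percent, with exact 95% counting intervals as bars. Psma7 falls as Psma8 peaks in the Piwil1 cluster, where Psma8 makes up 87.1% of the pair in WT and 89.8% in KO.

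Among the genes whose profile was most like that of Psma8 over 22 class profiles (11 classes in each library), by Pearson's correlation of log2(CPM + 1) among 14318 genes, were Dvl1 (r = 0.96), Zfp382 (0.95), Fam216a (0.95) and Pcgf6 (0.95). Dvl1 encodes a WNT signalling adaptor and Pcgf6 a polycomb group protein. Among members, Psmc3ip had r = 0.72 and Psmc3 r = 0.63, and Psma7 had r = 0.09. The profiles of one library share its depth and its RNA of other cells, so these values are descriptions.

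Of the other alpha subunits, Psma1, Psma2, Psma4 and Psma5 fell steeply. Psma2 went from 439 CPM in WT and 608 CPM in KO in spermatogonia-like cells to 51.8 in WT and 68.7 in KO in early-stage round spermatid-like cells and 1.38 in WT and 3.71 in KO in sperm-like cells. Psma3 held its level longer, with 342 CPM in WT and 385 CPM in KO in spermatogonia-like cells, 378 in WT and 399 in KO in the Piwil1 cluster and 237 in WT and 245 in KO in early-stage round spermatid-like cells.

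Psma6, the alpha 1 subunit, followed a course of its own. It was 511 CPM in WT (95% interval 475 to 550.2) and 469.6 CPM in KO (95% interval 454 to 486) in spermatogonia-like cells, fell to 153 CPM in WT and 154 CPM in KO in the Pabpc6 cluster, and rose to 626 in WT and 579 in KO in early-stage round spermatid-like cells. In the Tssk5 cluster it was 1182 CPM in WT and 1131 CPM in KO, and in the Spem1 cluster 1791 CPM in WT (95% interval 1753 to 1829) and 1715 CPM in KO (95% interval 1641 to 1792), its highest germ cell level. The log2 ratio of early-stage round spermatid-like over late spermatocyte-like cells was 1.81 in WT (95% interval 1.74 to 1.88) and 1.601 in KO (95% interval 1.53 to 1.67). Psma6 made up 15.3% in WT and 12.0% in KO of the UMIs of the 7 standard alpha subunits in spermatogonia-like cells, 51.0% in WT and 46.5% in KO in early-stage round spermatid-like cells and 99.1% in WT and 98.1% in KO in the Klk1b8 cluster. The message of 1 alpha subunit was thus left at a high level in sperm-like cells when that of the other 6 was almost gone.

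Psma6 (GRCm38 chr12:55384222-55418454 on the plus strand) has 2 start sites in the RefSeq promoter table, and counts per gene do not tell which was used. The last 120 bases of non-exonic sequence before each start are shown because the same gene was a falling subunit up to the Pabpc6 cluster and a rising one after it. Sequences are from RefSeq on GRCm38.p6, 5′ to 3′. GC content is 42.5% in the first and 75% in the second.
Psma6, first start, chr12:55384102-55384221, plus strand: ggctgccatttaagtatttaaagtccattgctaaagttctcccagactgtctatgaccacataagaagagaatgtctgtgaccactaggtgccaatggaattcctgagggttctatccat
Psma6, second start, chr12:55398655-55398774, plus strand: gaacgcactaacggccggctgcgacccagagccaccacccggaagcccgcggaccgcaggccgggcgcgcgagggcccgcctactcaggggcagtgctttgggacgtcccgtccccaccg

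Beta subunits form the cutting chambers. Most standard members fell through meiosis, as Psmb1 did, a beta ring subunit without an active site of its own: 903 CPM in WT and 1015 CPM in KO in spermatogonia-like cells, 310.4 in WT and 328 in KO in late spermatocyte-like cells, 76.3 in WT and 96.9 in KO in early-stage round spermatid-like cells and 3.11 in WT and 6.67 in KO in sperm-like cells. Psmb2 was 845 CPM in WT and 997 CPM in KO in spermatogonia-like and 2.40 in WT and 4.22 in KO in sperm-like cells. Psmb6, which carries the caspase-like site, did not follow them. It was 403 CPM in WT (95% interval 370.4 to 438) and 548 CPM in KO (95% interval 531 to 565) in spermatogonia-like cells, 631 CPM in WT and 694 CPM in KO in the Piwil1 cluster, its highest level, and still 619 in WT and 660.5 in KO in early-stage round spermatid-like cells. It was lower in the Cd46 cluster, with 329 CPM in WT and 333 CPM in KO, and fell to 56.0 in WT and 77.4 in KO in late-stage round spermatid-like cells. Its share of the UMIs of Psmb1 to Psmb7 was 11.2% in WT and 13.1% in KO in spermatogonia-like cells, 51.3% in WT and 52.0% in KO in early-stage round spermatid-like cells and 70.8% in WT and 69.3% in KO in the Cd46 cluster. Psmb5, with the chymotrypsin-like site, stood at 211 CPM in WT and 216 CPM in KO in spermatogonia-like cells and 103 in WT and 95.2 in KO in early-stage round spermatid-like cells. Psmb7, with the trypsin-like site, was 42.8 CPM in WT and 38.3 CPM in KO in spermatogonia-like cells. Psmb7 exons overlap those of Nek6 on the opposite strand, and strand use in the counting is not given. UMIs count captured messages and are not scaled by length.

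Psmb5 and Psmb6, a pair of catalytic subunits with the same core motif before their starts, are shown with that motif in capitals (RefSeq on GRCm38.p6, 5′ to 3′). It is the antioxidant response element core TGACNNNGC, the site bound by the products of Nfe2l1 and Nfe2l2, which drive proteasome genes in other cells. Among the 42 members searched in the RefSeq promoter table, 6 held it on either strand between 250 bases before and 50 after the start (Psmb5, Psmb6, Psmc6, Psmd9, Psmd12 and Psme4), and 13.99% of 27025 genes did. Psmb5 and Psmb6 had different stage courses.
Psmb5, chr14:54618023-54618142, minus strand: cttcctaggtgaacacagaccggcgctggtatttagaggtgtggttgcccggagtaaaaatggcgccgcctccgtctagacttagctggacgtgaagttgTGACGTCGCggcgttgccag
Psmb6, chr11:70525237-70525356, plus strand: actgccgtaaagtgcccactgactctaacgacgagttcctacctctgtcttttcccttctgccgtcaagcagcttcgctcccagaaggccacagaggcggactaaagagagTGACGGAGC

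Other motifs were searched in the same way, on both strands. The interferon-gamma activated site TTCNNNGAA was found in 3 members (Psmb8, Psmd2 and Psmg1) and in 9.55% of genes. The core of the interferon-stimulated response element (ISRE core) was found in 5 members (Psmb3, Psmd4, Psmd9, Psme1 and Psmg4) and in 3.99% of genes. The cyclic AMP response element TGACGTCA was in 0 members and in 2.03% of genes, the nuclear respiratory factor 1 box in Psma2 and Psmg1 and in 1.07% of genes, and CCAAT in 15 members and in 41.1% of genes. TTCNNNGAA matches its own reverse complement, as does TGACGTCA. Psmb1, Psmb2, Psmb7, Psmc3, Psmd3, Psmd7, Psma8 and Psmg2 were not searched. A match gives letters in a window and says nothing of binding.

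Of the catalytic immunoproteasome subunits, Psmb8 was found mainly in somatic cells and Psmb10 also in spermatogonia-like cells. Psmb8 (GRCm38 chr17:34197721-34201454 on the plus strand) stood at 27.3 CPM in WT (95% interval 18.3 to 39.2) and 44.5 CPM in KO (95% interval 40.5 to 48.8) in Leydig-like cells and at 73.5 CPM in WT (95% interval 46.1 to 111) and 110.3 CPM in KO (95% interval 87.5 to 137) in macrophage-like cells. The 24 endothelial-like KO cells gave 272 CPM (43 UMIs). In the germ cell clusters Psmb8 was at 0 UMIs in 11 of 12 WT clusters, 3 UMIs being counted in the Cd46 cluster, and did not exceed 2.19 CPM in KO. After thinning, a Psmb8 UMI was found in 34.8% in WT and 41.2% in KO of macrophage-like cells, 12.5% in WT and 16.05% in KO of Leydig-like cells and 0% in WT and 0.698% in KO of spermatogonia-like cells. The 0 of 154 WT spermatogonia-like cells gives an exact upper bound of 2.37%.

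Each immunoproteasome subunit was set against the standard subunit it replaces. Psmb8 supplied 56.4% in WT (95% interval 39.6 to 72.2%) and 54.8% in KO (95% interval 46.4 to 63.0%) of the UMIs of Psmb5 and Psmb8 in macrophage-like cells and 11.3% in WT (95% interval 7.69 to 15.8%) and 20.2% in KO (95% interval 18.6 to 21.9%) in Leydig-like cells. In endothelial-like KO cells it was 82.7%. Psmb9, whose exons overlap those of the peptide transporter gene Tap1 on the opposite strand (GRCm38 chr17:34181987-34187764 on the minus strand), supplied 8.08% in WT and 5.84% in KO of its pair with Psmb6 in macrophage-like cells and 2.20% in WT and 3.91% in KO in Leydig-like cells. Whether the counting used strand is not given in the sources used here, so reads from the exons that Psmb9 and Tap1 share cannot be told apart. The same holds for Psmb8 and its antisense partner Gm20496. Psmb10 differed from both in that it was also present in the germ line: it stood at 67.8 CPM in WT and 87.1 CPM in KO in spermatogonia-like cells and supplied 61.3% in WT and 69.4% in KO of its pair with Psmb7 there, then 15.8% in WT and 16.3% in KO in late spermatocyte-like cells. In Leydig-like cells it was 47.1 CPM in WT and 57.7 CPM in KO and that share was 73.5% in WT and 77.9% in KO. The 3 genes together made up 25.2% in WT (95% interval 18.5 to 32.9%) and 26.5% in KO (95% interval 22.6 to 30.6%) of the UMIs of Psmb5 to Psmb10 in macrophage-like cells, 10.4% in WT and 16.6% in KO in Leydig-like cells and 9.44% in WT and 10.5% in KO in spermatogonia-like cells. The macrophage-like value rests on 23 WT and 71 KO cells, and was 41.9% in WT and 33.3% in KO after cells were thinned to 5000 UMIs. Psmb7 exons overlap those of Nek6 on the opposite strand, so its counts, and every share set against them, carry the limit given for Psmb9.

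**Figure D3:**
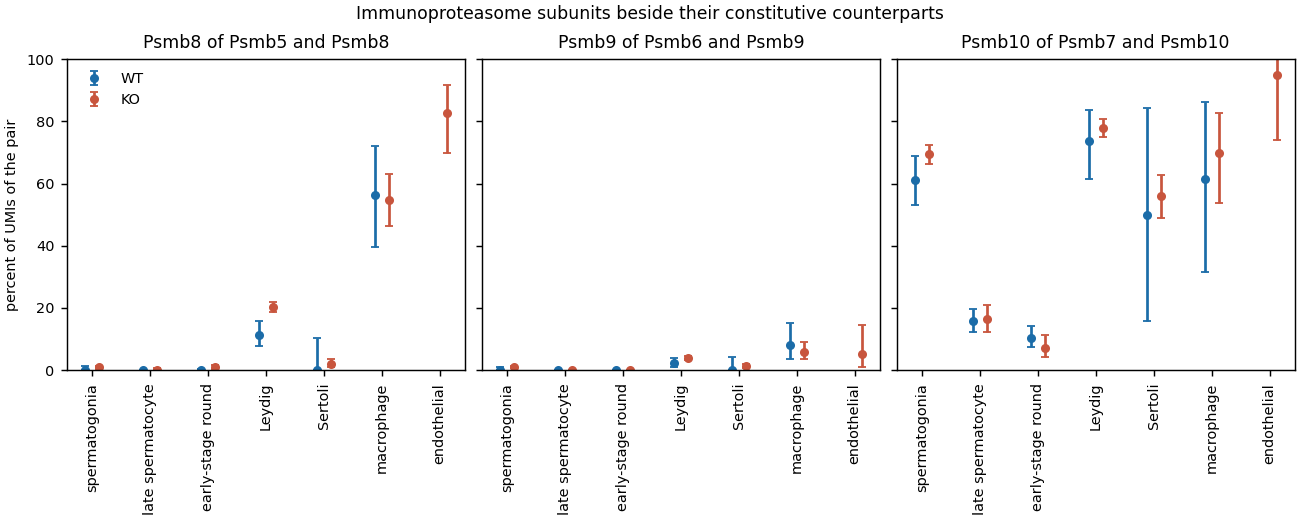
Share of each immunoproteasome subunit in the UMIs of its pair with the standard subunit it replaces, in percent, in 3 germ cell and 4 somatic or immune classes of the WT and KO libraries, with exact 95% counting intervals as bars (the 1 WT endothelial-like cell is left out). Psmb8 takes a large share in macrophage-like cells (56.4% in WT and 54.8% in KO) and under 1% in the germ cells shown. Psmb10 is also high in spermatogonia-like cells (61.3% and 69.4%), beside Psmb7, whose exons overlap those of Nek6 on the opposite strand.

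In Leydig-like cells Psmb8 had a log2 KO/WT ratio of 0.70 (95% interval 0.16 to 1.30). In macrophage-like cells its ratio was 0.59 (95% interval -0.11 to 1.34), an interval that holds 0. The Leydig-like ratio was above 1.5-fold in 5 of 7 alternative settings and lowest at 0.55. A finer clustering, chosen after the data were seen, set 16 WT and 86 KO stromal and peritubular-like cells apart. Psmb8 was then 31.6 CPM in WT and 46.2 CPM in KO in the Leydig-like cells that remained. Of 14 antigen presentation and interferon response genes, 11 could be compared in Leydig-like cells, 2 of which were at least 1.5-fold higher in KO (Irf1 and Irf8) and 1 lower. Irf1, an interferon-induced transcription factor, stood at 18.8 CPM in WT and 163 CPM in KO. B2m, the light chain of MHC class I, was 1167 CPM in WT and 1557 CPM in KO in Leydig-like cells and 1089 in WT and 1389 in KO in macrophage-like cells.

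The regulatory particle was also uneven. The base threads substrates through a ring of 6 ATPases, Psmc1 to Psmc6. Psmc1, Psmc4, Psmc5 and Psmc6 fell with the bulk, Psmc4 for instance from 160.5 CPM in WT and 182 CPM in KO in spermatogonia-like cells to 35.8 in WT and 46.3 in KO in early-stage round spermatid-like cells and 1.53 in WT and 2.22 in KO in sperm-like cells. Psmc3 rose instead, from 325 CPM in WT (95% interval 296 to 356) and 321 CPM in KO (95% interval 308 to 334) in spermatogonia-like cells to 785 CPM in WT (95% interval 766 to 805) and 763 CPM in KO (95% interval 740.1 to 786) in the Pabpc6 cluster, and was still 199 CPM in WT and 207 CPM in KO in late-stage round spermatid-like cells. Its share of the 6 ATPase genes was 23.7% in WT and 21.7% in KO in spermatogonia-like cells and 55.8% in WT and 54.5% in KO in the Pabpc6 cluster. Psmc3 exons overlap Slc39a13 on the opposite strand, and reads from the shared stretch cannot be told apart. Psmc2 was highest in early-stage round spermatid-like cells, at 452 CPM in WT and 427 CPM in KO, and its share of the 6 genes was 15.5% in WT and 13.2% in KO in spermatogonia-like cells and 80.6% in WT and 77.7% in KO in the Tnp2 cluster. The ATPases thus kept no fixed ratio of messages along the germ line. In sperm-like cells Psmc2 was 313 CPM in WT and 339 CPM in KO and Psmc3 80.1 CPM in WT and 111 CPM in KO, against 9.20 CPM in WT and 11.9 CPM in KO of Psmc6.

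Among the other base subunits, Psmd4, a ubiquitin receptor, declined less than Psmd1 and Psmd2, the scaffold subunits. Psmd4 was 254 CPM in WT and 321 CPM in KO in spermatogonia-like cells and 56.3 in WT and 90.5 in KO in sperm-like cells. Psmd1 was 138 CPM in WT and 163 CPM in KO and then 1.49 in WT and 2.00 in KO. In the lid, Psmd14, the deubiquitinase that releases ubiquitin chains, fell from 227 CPM in WT and 259.8 CPM in KO in spermatogonia-like cells to 22.2 in WT and 28.2 in KO in early-stage round spermatid-like cells. Psmd8 was the exception: 267 CPM in WT (95% interval 240.4 to 295) and 258 CPM in KO (95% interval 247 to 269.9) in spermatogonia-like cells, 525 CPM in WT and 464 CPM in KO in the Piwil1 cluster and 276 in WT and 327 in KO in sperm-like cells. Psmd8 supplied 18.9% in WT and 15.96% in KO of the UMIs of the 8 lid genes in spermatogonia-like cells and 89.9% in WT and 87.5% in KO in sperm-like cells. Psmd7, a lid scaffold, peaked in the Pabpc6 cluster at 137 CPM in WT and 146 CPM in KO.

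Activators open the gate of the core without the regulatory particle, and each had its own stage. Psme1 and Psme2, the interferon-responsive PA28 alpha and beta subunits, were messages of spermatogonia and somatic cells. Psme1 stood at 64.9 CPM in WT and 106 CPM in KO in spermatogonia-like cells, 0.448 in WT and 0.640 in KO in late spermatocyte-like cells and 169 in WT and 225 in KO in Leydig-like cells. Psme2 was 162 CPM in WT and 244 CPM in KO, 0.598 in WT and 3.02 in KO and 220.4 in WT and 251.3 in KO in the same classes. The near-identical copy Psme2b was counted in 20 UMIs in WT and 198 in KO, and reads shared by the pair may have been split or dropped, so both values are uncertain.

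Psme4 (PA200) was present in every germ cell cluster. It stood at 92.7 CPM in WT (95% interval 77.5 to 110.1) and 61.0 CPM in KO (95% interval 55.5 to 66.9) in spermatogonia-like cells, 206 CPM in WT (95% interval 196 to 216) and 187 CPM in KO (95% interval 176 to 199) in the Pabpc6 cluster and 165 CPM in WT and 158 CPM in KO in sperm-like cells. It supplied 91.9% in WT (95% interval 90.8 to 92.9%) and 91.0% in KO (95% interval 89.7 to 92.2%) of the UMIs of Psme1 to Psme4 in early-stage round spermatid-like cells, against 20.9% in WT and 11.2% in KO in spermatogonia-like cells. Psme3 (PA28 gamma), a nuclear activator, did the reverse: 123 CPM in WT and 131 CPM in KO in spermatogonia-like cells, 16.5 in WT and 15.1 in KO in early-stage round spermatid-like cells and 401 in WT and 320.4 in KO in late-stage round spermatid-like cells, its highest level. With it the share of Psme4 went to 32.8% in WT and 33.7% in KO in late-stage round spermatid-like cells, where Psme3 supplied 67.0% in WT and 65.8% in KO. The summed level of the activators was 214 CPM in WT and 193 CPM in KO in early-stage and 598 in WT and 487 in KO in late-stage round spermatid-like cells.

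Psmf1 (PI31), an inhibitor of the core in the test tube, was among the latest messages. It was 254 CPM in WT (95% interval 228 to 282) and 196 CPM in KO (95% interval 186 to 206) in spermatogonia-like cells, 124 CPM in WT and 93.9 CPM in KO in the Pabpc6 cluster, 245 in WT and 237 in KO in early-stage round spermatid-like cells, 1618 in WT and 1537 in KO in late-stage round spermatid-like cells and 2303 in WT and 2157 in KO in the Tnp2 cluster. The log2 ratio of sperm-like over early-stage round spermatid-like cells was 2.98 in WT (95% interval 2.92 to 3.03) and 3.05 in KO (95% interval 2.99 to 3.11). The log2 ratio of Psmf1 in late spermatocyte-like over spermatogonia-like cells was -0.996 in WT and -0.85 in KO. In KO it changed sign with doublets removed. The part of spermatid RNA in the spermatogonia-like level of Psmf1 was not tested. Psmf1 and Psma6 were each above 1000 CPM in all 4 sperm-like clusters of both libraries. Sperm-like cells carried 268212 CPM in WT and 238387 CPM in KO of the 10 spermatid transcripts, so a level in CPM there is a share of a changed total. The 120 bases before the Psmf1 start (GRCm38.p6 RefSeq, 5′ to 3′; gene at chr2:151715812-151744186 on the minus strand) are given as the counterpart of the Psma6 windows. Their GC content is 52.5%, and none of the motifs named above was found in them.
Psmf1, chr2:151741311-151741430, minus strand: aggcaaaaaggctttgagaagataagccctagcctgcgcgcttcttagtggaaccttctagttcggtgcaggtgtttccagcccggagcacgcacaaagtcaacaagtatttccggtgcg

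**Figure D4:**
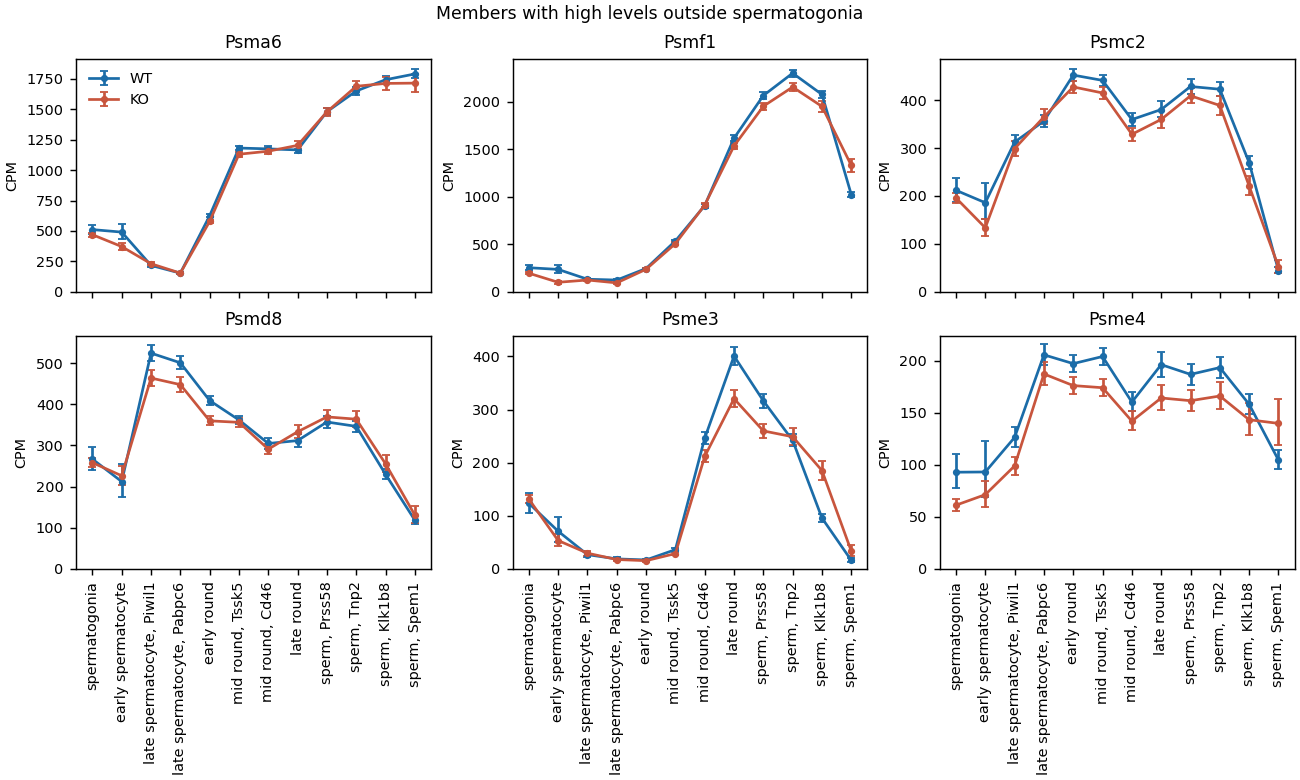
Levels in CPM (linear axes, one panel per gene) of Psma6, Psmf1, Psmc2, Psmd8, Psme3 and Psme4 across the 12 germ cell clusters of the WT and KO libraries, with exact 95% counting intervals as bars. Psmf1 rises above 1000 CPM in late-stage round spermatid-like cells and Psma6 already in the Tssk5 cluster, while Psme3 lies at 16.5 CPM in WT and 15.1 CPM in KO in early-stage round spermatid-like cells and is highest in late-stage round spermatid-like cells.

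Assembly chaperones guide the rings and the base together. As a group they were 581 CPM in WT and 665 CPM in KO in spermatogonia-like cells, 245 in WT and 319.5 in KO in late spermatocyte-like cells, 353 in WT and 402 in KO in early-stage round spermatid-like cells and 12.1 in WT and 31.6 in KO in sperm-like cells. Psmd10 (gankyrin), a base chaperone and the only member on the X chromosome, had few UMIs in the Piwil1 cluster. Psmd10 was 52.1 CPM in WT (95% interval 40.8 to 65.5) and 62.0 CPM in KO (95% interval 56.4 to 67.9) in spermatogonia-like cells, 1.14 CPM in WT (95% interval 0.419 to 2.48) and 1.33 CPM in KO (95% interval 0.534 to 2.74) in the Piwil1 cluster and 87.0 CPM in WT (95% interval 81.9 to 92.4) and 109 CPM in KO (95% interval 103 to 115) in early-stage round spermatid-like cells. Genes of the X chromosome are silenced as a body in pachytene cells. Among genes with at least 100 UMIs in the spermatogonia-like cells of a library, 60 of 69 X genes in WT (87.0%) and 236 of 287 in KO (82.2%) were at least 10-fold lower in the Piwil1 cluster than in spermatogonia-like cells, against 10.7% and 12.8% of autosomal genes. The spermatogonia-like cells held 1402087 UMIs in WT and 7405614 UMIs in KO, so this minimum admitted unlike sets of genes in the libraries. Psmd10 itself did not reach it in WT. Psmg1, an alpha ring chaperone, was 109 CPM in WT and 122 CPM in KO in spermatogonia-like cells and 22.9 in WT and 35.1 in KO in early-stage round spermatid-like cells. Its partner Psmg2 was 90.6 CPM in WT and 129 CPM in KO and 129 in WT and 137 in KO in the same classes, so the members of this heterodimer diverged.

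Psmc3ip (HOP2), which acts with the recombinases in meiosis, had a meiotic course: 87.7 CPM in WT and 60.6 CPM in KO in spermatogonia-like cells, 423 in WT and 453 in KO in the Piwil1 cluster and 34.0 in WT and 36.8 in KO in sperm-like cells. Psmb11, the thymus subunit, was counted in 8 UMIs in WT and 11 in KO over all cells, and nothing more can be said of it at this depth.

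Partners of the proteasome outside the naming rule were compared as 27 genes, among them those for ubiquitin, its activating enzymes, shuttle factors and receptors. Of the 20 with enough UMIs at the step from spermatogonia-like to late spermatocyte-like cells, 10 were lower and 3 higher. Ubb, a polyubiquitin gene, and Akirin2, which carries proteasomes into the nucleus, were among those that were higher. At the step to early-stage round spermatid-like cells 3 of 22 were lower (Pomp, the core maturation factor, Rps27a and Nfe2l1) and 1 higher (Uba1, the main ubiquitin-activating enzyme). At the step to sperm-like cells 13 of 21 were lower and 2 higher, among them Uba1. The shares of all genes at these steps are those given for the members. The 27 partner genes summed to 7991 CPM in WT and 8411 CPM in KO in spermatogonia-like cells, 9208 in WT and 8055 in KO in late spermatocyte-like cells and 1683 in WT and 1617 in KO in sperm-like cells. In WT their sum was thus higher in late spermatocyte-like than in spermatogonia-like cells, where that of the standard subunits was lower.

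In somatic cells the standard subunits summed to 7299.6 CPM in WT and 7023 CPM in KO in Leydig-like cells, 4128 in WT and 6952 in KO in Sertoli-like cells and 3719 in WT and 5131 in KO in macrophage-like cells. Leydig-like cells resembled spermatogonia-like cells in Psma7, with 1076 CPM in WT and 1107 CPM in KO, and in Psme2. The WT Sertoli-like cells stood apart in other ways. They carried 1017 CPM of Psma6 and 1132 CPM of Psmf1, against 512 and 297 CPM in KO, and these are the members most abundant in sperm-like cells. The summed spermatid transcripts there were 155949 CPM in WT and 35162 CPM in KO. Macrophage-like cells likewise gave 742 CPM in WT and 484 CPM in KO of Psmf1, with spermatid transcripts at 71531 in WT and 48411 in KO. The part of spermatid RNA in these values was not tested. In Sertoli-like cells 34 of 44 members were at least 1.5-fold higher in KO and 4 lower, and 61.1% and 17.1% of all genes were, with a median log2 ratio of 1.06 over the members and 0.88 over all genes, so nothing is read from the members' count.

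Genotypes were then compared within classes, to ask whether loss of Alkbh5 went with another level of proteasome messages. A gene was called when its CPM differed at least 1.5-fold, and only genes whose WT and KO sums came to 100 UMIs or more were compared. In spermatogonia-like cells the standard subunits summed to a log2 KO/WT ratio of 0.21 (95% interval 0.18 to 0.23). Of 46 members 5 were higher in KO (Psma8, Psmd3, Psmd7, Psme1 and Psme2; 8.12% of all genes were higher) and Psme4 was lower (10.8% of all genes were lower). The median ratio of the members was 0.23, against 0.02 over all genes. Psme1 went from 64.9 to 106 CPM, a log2 ratio of 0.71 (95% interval 0.40 to 1.04). Psma8 had a ratio of 0.80 (95% interval 0.35 to 1.28) there. Psme4 had -0.60 (95% interval -0.89 to -0.31), which stayed past 1.5-fold in 4 of 7 alternative settings and below 0 in all 7. After thinning to 5000 UMIs 2 members were higher and 0 lower. Spermatid transcripts were lower in the KO spermatogonia-like cells and Leydig transcripts higher, with 23.5 CPM in WT and 199 CPM in KO of the latter, and the 2 libraries gave 154 and 917 cells. The part of these in the ratios was not tested.

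In meiotic and post-meiotic cells the sums over all standard subunits were closer between the libraries. The log2 KO/WT ratio of the summed standard subunits was 0.10 (95% interval 0.08 to 0.11) in late spermatocyte-like cells, 0.03 (95% interval 0.01 to 0.04) in mid-stage round spermatid-like cells and 0.08 (95% interval 0.06 to 0.10) in sperm-like cells. In sperm-like cells this sum rests on 5 genes. Without Psma6, Psmc2, Psmc3, Psmd4 and Psmd8 the ratio there was 0.52 (95% interval 0.44 to 0.59), against 0.08 for the full sum. The part of RNA of other cells in the ratio without these 5 genes was not tested. In late spermatocyte-like cells 0 of 44 members were higher in KO and 0 lower by 1.5-fold (7.66% and 5.47% of all genes), with a median of 0.14 against 0.03 over all genes. In mid-stage round spermatid-like cells 6 of 42 were higher (Psma2, Psmb1, Psmd5, Psmd10, Psmd14 and Psmg1; 12.1% of all genes) and 0 lower (5.6% of all genes). Psma2 was 13.1 CPM in WT and 24.98 CPM in KO there, a ratio of 0.93 (95% interval 0.71 to 1.16). Psmd10 was 56.2 CPM in WT and 97.9 CPM in KO, a ratio of 0.80 (95% interval 0.69 to 0.91). In sperm-like cells 10 of 30 were higher (20.6% of all genes) and 0 lower (5.79% of all genes), with a median of 0.35 against 0.16. Among the 10, Psmd4 was 56.3 CPM in WT and 90.5 CPM in KO, and in WT the other 9 ran from 2.32 CPM (Psma4) to 7.67 CPM (Psmd7). Psmd10 was 3.81 CPM in WT and 15.3 CPM in KO, a ratio of 2.01 (95% interval 1.65 to 2.37). Psma7 was 3.03 CPM in WT and 10.5 CPM in KO, a ratio of 1.80 (95% interval 1.39 to 2.22), and Leydig transcripts were 25.8 CPM in WT and 147 CPM in KO in the same cells. Their part in the ratio was not tested. The sperm-like class pools 4 clusters, with 547 WT and 500 KO cells in the Prss58 cluster but 554 and 153 in the Spem1 cluster. In Prss58 3 of 18 members were called higher in KO (639 of 5018 genes) and in Tnp2 1 of 14 (503 of 4173). In Klk1b8 1 of 11 were (402 of 3281 genes) and in Spem1 2 of 10 (525 of 2507), with 0 called lower. The part of the mix in the class ratios was not tested. Psmd4 stayed past 1.5-fold in 6 of 8 alternative settings.

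Each of the 12 germ cell clusters was also taken on its own. Of the 10 members with enough UMIs in every cluster, Psmd4 was higher in KO in 12 of 12 (4.63% of all genes tested were higher in all 12) and 0 were lower in 12 of 12 (9.05% of all genes). The log2 ratio of Psmd4 over the clusters ran from 0.06 to 0.68. Psmb4, Psmb6 and Psmd4 were higher in KO in at least 11 of 12 clusters (11.5% of all genes). Psme4 was the only one lower in KO in at least 11 of 12 clusters (17.4% of all genes), with 9 intervals below 0 and a median log2 ratio of -0.21. Psmf1 was lower in 10 of 12, with 8 intervals below 0 and a median of -0.09. Psmc2 was lower in 10 of 12 as well, with 6 intervals below 0. The share of all genes lower in at least 10 of 12 was not computed. The members outside the 10 had under 100 UMIs in at least one cluster and were not compared with the share of all genes. Among them Psma2, Psma4, Psmb1, Psmb3, Psmd11 and Psmd14 were higher in KO in 12 of 12, Psma2 with 10 intervals above 0 and a median of 0.96 and Psmb3 with 5 and a median of 0.24. Psmb7 and Psmc3ip were lower in 10 of 12, Psmc3ip with 8 intervals below 0 and Psmb7 with 0. Some signs of members outside the 10 rest on low levels: Psma2 was 0.715 CPM in WT and 2.72 CPM in KO in the Tnp2 cluster. Clusters of one library share its depth and are not replicates.

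**Figure D5:**
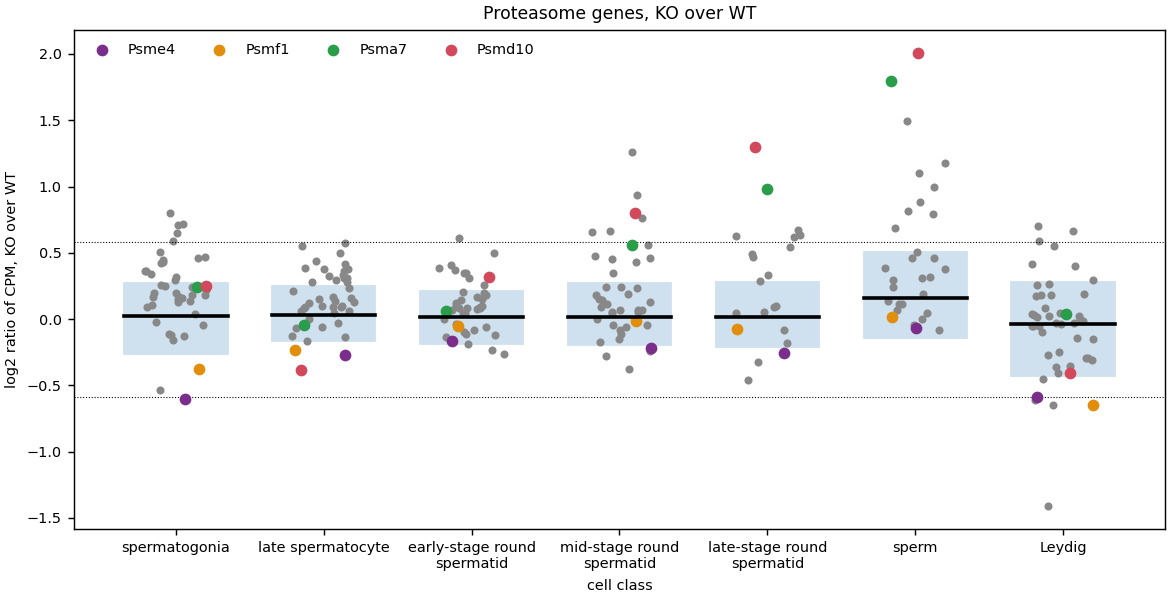
Log2 ratio of CPM, KO over WT, of each member past the UMI minimum (one point per gene, with Psme4, Psmf1, Psma7 and Psmd10 in colour) in 6 germ cell classes and Leydig-like cells. Black lines and boxes give the median and the middle 50% of all genes tested, and dotted lines mark 1.5-fold. In spermatogonia-like cells most members lie above the median of all genes (0.02) and Psme4 lies lowest, and in sperm-like cells Psma7 and Psmd10 lie highest.

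In Leydig-like cells the standard subunits had a log2 KO/WT ratio of -0.06 (95% interval -0.09 to -0.02). Of 47 members 3 were higher in KO (Psmb8, Psmd1 and Psmg3; 12% of all genes) and 5 lower (Psmc3ip, Psme3, Psme4, Psmf1 and Psmg2; 19.3% of all genes), with a median of -0.03 against -0.04 over all genes. Without integration of the libraries 0 members were higher and 0 lower in the Leydig-like cells. Psmf1 was 177 CPM in WT and 113 CPM in KO, a ratio of -0.65 (95% interval -0.87 to -0.42). Psme4 was 62.2 CPM in WT and 41.4 CPM in KO, a ratio of -0.59 (95% interval -0.96 to -0.19), which was past 1.5-fold in 2 of 7 alternative settings and -0.17 after thinning. Spermatid transcripts in Leydig-like cells were 15322 CPM in WT and 11135 CPM in KO. Their part in these ratios was not tested.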

How the data were processed

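Testis cells of 1 WT and 1 Alkbh5-/- library were profiled by single-cell RNA sequencing. The deposited values are raw UMI counts per gene and cell barcode, which the authors made from the reads. The submitters' processing notes list STAR 2.5.3a, FastQC 0.11.7 and fastp 1, with featureCounts at version 1.6.2. The methods name the human build GRCh38, whereas the symbols of the files are those of mouse genes, so the build behind the counts is uncertain and strand use is not given in the sources used here. How many mice made up a library is stated inconsistently, and each library was taken as 1 sample.

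All 5756 and 7012 barcodes held over 500 genes and were kept. Cells were integrated and clustered in Seurat 5.3.0 (R 4.3.3; 2000 variable features, among them 6 of the members, 20 anchor dimensions, 30 principal components, resolution 0.3). A cluster was named from a marker list when at least 3 of its markers were detected. Scrublet (scanpy 1.11.5) marked 244 WT and 345 KO barcodes as doublets, which stayed in, and removing them was an alternative. UMIs were summed per library and cluster or class. CPM, shares and KO/WT ratios were computed from the sums, with exact Poisson, Clopper-Pearson and conditional intervals at 95% (SciPy 1.17.1). No ratio was given where a sum was 0. In counts of genes or clusters, a sum of 0 on only one side of a comparison still counted by its direction. No test was made. The ratio code was tested on simulated data. To compare shares of cells with a UMI, each cell was thinned to 5000 UMIs, which left out 241 KO cells.

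All members may be named, with genes of the partner, antigen presentation and RNA-of-other-cells lists and the 5 genes most like Psma8. Some of these genes are not reported here. The members and lists were chosen with earlier results of these data known. Positions are from GENCODE vM21 (GRCm38) by symbol, and the exons of 15 of the 50 members overlap another gene. Promoters are from RefSeq (GRCm38.p6), and 42 of 50 members were searched in them. Members on chromosome 18, Psma8 and Psmg2, were left out of this search, and the shares of all genes were not restricted in this way. Alternatives were another gene minimum per cell, resolution 0.8, no integration, members left out of the variable features, doublets removed, thinning, CPM without mitochondrial and ribosomal protein genes, another UMI minimum and another fold, and, chosen after seeing the data, equal weight for each cluster of a class.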

Additional observations from a re-analysis of the deposited data

How the results depend on the processing

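Of 232 alternative values of the 27 main results, 191 stayed within the spread allowed, 41 moved and 0 reversed. Of 514 values of single genes, 460 stayed, 52 moved and 2 reversed. After thinning to 5000 UMIs the Psma8 share in KO late spermatocyte-like cells was 87.0%, the Psme4 share in KO early-stage round spermatid-like cells 92.3%, and the immunoproteasome share in macrophage-like cells 41.9% in WT and 33.3% in KO, and Psme3 reversed between late spermatocyte-like and early-stage round spermatid-like WT cells to a log2 ratio of 0.32. With doublets removed Psmf1 reversed between spermatogonia-like and late spermatocyte-like KO cells to 0.0853.

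The log2 KO/WT ratio of the summed standard subunits kept its sign throughout. In spermatogonia-like cells it was 0.25 with over 1000 genes per cell, 0.24 without integration, 0.24 with members left out of the variable features and 0.24 without mitochondrial and ribosomal protein genes. In late spermatocyte-like cells it was 0.11 without those genes and 0.0734 with equal weight for each cluster. In mid-stage round spermatid-like cells it was 0.0848 without integration and 0.0074 with doublets removed, in sperm-like cells 0.0321 with equal weight for each cluster, and in Leydig-like cells -0.12 at resolution 0.8 and -0.10 without integration.

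Counts of members were small and less stable. In spermatogonia-like cells 2 were higher after thinning and 0 at a fold of 2, while 2 were lower with doublets removed and 0 at resolution 0.8, after thinning, without mitochondrial and ribosomal protein genes and at a fold of 2. In late spermatocyte-like cells 2 were higher after thinning and 1 without mitochondrial and ribosomal protein genes. In mid-stage round spermatid-like cells 1 was higher at a fold of 2, and 1 lower without integration and 1 at a minimum of 50 UMIs. In sperm-like cells 16 were higher at 50 UMIs and 5 at a fold of 2. In Leydig-like cells 1 was higher at resolution 0.8, with members left out of the variable features and after thinning, and 0 without integration and at a fold of 2, while 3 were lower with over 1000 genes per cell, 2 at resolution 0.8, 2 after thinning, 1 at a fold of 2 and 0 without integration. At a fold of 1.5 in place of 2, 6 members were higher in late spermatocyte-like than in spermatogonia-like cells and 13 lower in early-stage round spermatid-like than in late spermatocyte-like cells. The cause of these shifts was not tested. Of 30 genotype ratios of single members, 15 stayed past 1.5-fold and 30 kept their sign in every alternative. With 1 library per genotype and 23 WT macrophage-like cells, depth and replication limit every genotype ratio. No paired analysis was possible because the groups share fewer than 2 replicate numbers.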
